A study of Mus musculus with 12 samples.

Results

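The data describe 10 genes of matrix turnover in the epileptic mouse hippocampus after an inflammatory challenge: the matrix metalloproteinases Mmp3, Mmp8, Mmp9, Mmp14 and Mmp2, the proteoglycan-cleaving proteases Adamts1, Adamts4 and Adamts9, and the inhibitors Timp1 and Timp3. These are 10 of the 27398 gene names on the array, taken by the name that the array files give. A probe was kept where all 3 arrays of some group had it well above background by the scanner software's flag. Of the 17 probes of these 10 genes 15 were kept, at least 1 for each gene, among 27682 kept of 41174 transcript probes. The probes not kept, A_51_P407417 and A_52_P237241, are both for Adamts9, which has 2 others. Mmp8 was kept only through the LPS 4 h arrays and the Mmp9 probe A_51_P401797 only through the LPS 24 h arrays. The Adamts9 probe A_51_P479390 was kept only through the LPS groups of both times. A signal well above background in those LPS groups was thus a condition of entry for these probes.

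All mice were male C57BL/6N, 12 weeks old, and all had received 50 nl of 20 mM kainate, a glutamate receptor agonist that causes seizures, in the left dorsal hippocampus. After 3 weeks, with chronic seizures established, they were injected intraperitoneally with lipopolysaccharide (LPS, an endotoxin of Gram-negative bacteria, 100 µg/kg) or with saline, and whole hippocampi were taken after 4 or 24 h. The groups were LPS 4 h, saline 4 h, LPS 24 h and saline 24 h, with 3 mice and 3 one-colour arrays each, 12 arrays in all. No mice without kainate were analysed here, so each saline value is that of an epileptic hippocampus, and the labels do not say whether the injected side, the other side or both were used. RNA came from bulk tissue, in which fewer cells of a type and less RNA per cell cannot be told apart.

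Matrix metalloproteinases are made as inactive precursors that cut collagens, laminins and other matrix proteins once activated, and the tissue inhibitors of metalloproteinases (Timps) bind and block the active enzymes. The Adamts proteases named here cleave the large proteoglycans of the hyaluronan-based brain matrix, among them aggrecan and versican. In the brain these enzymes are known for opening the vascular basement membrane during inflammation and for remodelling the matrix around synapses and the perineuronal nets after seizures.

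The sequence before the transcription start was printed for 4 members that differ in their response: Mmp3, higher after LPS at both times, Mmp8 and Adamts9, higher at 4 h, and Timp1, which had its larger response at 24 h. RefSeq promoters (build GRCm38.p6) were matched by symbol for 7 of the 10 members, and the 250 bases before the start are shown 5′ to 3′ on the strand of the gene. Capitals mark matches, on either strand, to the letters of 4 inflammation-linked motifs: AP-1 (TGANTCA), NF-kappaB (GGNNTTTCC, the usual form less its first G), STAT (TTCNNNGAA) and C/EBP (TTGCNNAA).
Mmp3, chr9:7445572-7445821, plus strand: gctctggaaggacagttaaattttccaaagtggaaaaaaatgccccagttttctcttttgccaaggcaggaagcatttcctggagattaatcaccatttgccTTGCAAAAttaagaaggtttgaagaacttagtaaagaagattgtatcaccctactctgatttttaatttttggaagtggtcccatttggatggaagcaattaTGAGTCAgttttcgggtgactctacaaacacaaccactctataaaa
Mmp8, chr9:7558179-7558428, plus strand: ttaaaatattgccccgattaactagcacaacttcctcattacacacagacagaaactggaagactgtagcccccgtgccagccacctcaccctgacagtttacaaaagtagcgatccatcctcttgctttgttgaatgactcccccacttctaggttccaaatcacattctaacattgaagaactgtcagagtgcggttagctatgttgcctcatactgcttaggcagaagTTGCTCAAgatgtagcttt
Timp1, chrX:20869916-20870165, plus strand: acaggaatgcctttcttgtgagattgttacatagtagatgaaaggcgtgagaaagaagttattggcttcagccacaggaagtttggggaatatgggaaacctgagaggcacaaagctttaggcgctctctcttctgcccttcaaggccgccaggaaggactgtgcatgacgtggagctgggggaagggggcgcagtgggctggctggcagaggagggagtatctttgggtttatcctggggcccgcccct
Adamts9, chr6:92943535-92943784, minus strand: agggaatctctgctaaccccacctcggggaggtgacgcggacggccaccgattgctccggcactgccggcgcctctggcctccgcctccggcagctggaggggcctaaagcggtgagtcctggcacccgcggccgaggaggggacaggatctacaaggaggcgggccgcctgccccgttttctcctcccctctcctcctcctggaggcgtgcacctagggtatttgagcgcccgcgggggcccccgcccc
Mmp3 held 1 AP-1 match, TGAGTCA, from 46 to 40 bases before the start (-46 to -40), and 1 C/EBP match, TTGCAAAA, from -148 to -141. Mmp8 held 1 C/EBP match, TTGCTCAA, from -19 to -12. The other 5 matched promoters (Mmp14, Timp1, Timp3, Adamts1 and Adamts9) held none of the 4 motifs in this window. Of all 32851 promoters listed there, 6.75% held an AP-1, 4.93% an NF-kappaB, 7.02% a STAT and 9.56% a C/EBP match in the same window; the matches in the members did not overlap. A match is a string of letters and was not tested as a binding site.

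Timp1 was read by 2 probes whose responses at 4 h differed, and their sequences are shown for that reason. On the build that the array files use, mm9, both lie on the plus strand of chromosome X.
A_51_P512384, chrX:20449905-20449964: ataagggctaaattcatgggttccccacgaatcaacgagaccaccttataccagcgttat
A_52_P87713, chrX:20451675-20451733: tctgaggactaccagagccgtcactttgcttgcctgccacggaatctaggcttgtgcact
The first is 45.0% G and C and the second, nearer the end of the gene, 55.0%.

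Levels are log2 of the processed intensity relative to the 75th percentile of the array, which was 668.7 to 739.5 on the LPS 4 h, 371.6 to 396.2 on the saline 4 h, 722.1 to 954.8 on the LPS 24 h and 739.7 to 861.8 on the saline 24 h arrays. In that order 58.2 to 61.4%, 53.9 to 55.0%, 69.0 to 70.9% and 65.1 to 66.4% of probes passed that flag, and the number of saturated transcript spots was 0. Arrays of 1 group differed by a median SD of 0.05 to 0.07 on the log2 scale. Each of 6 slides carried 1 LPS and 1 saline array of the same time, and the scan times in the headers form 1 run for the 4 h arrays and another for the 24 h arrays. Time and scan run therefore cannot be told apart. Within the 4 h run brightness also followed treatment: every LPS array had a higher 75th percentile and more probes above background than every saline array. The part of this in the 4 h differences, and in the saline 4 h signals not well above background, was not tested. Between the saline groups, 24 h against 4 h, 79.4% of all probes differed (adjusted p under 0.05). Hippocampal neuron markers were well above background on every array (7 of 7).

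At 4 h 11 of the 15 member probes were called (71.2% of all probes): 10 were higher in LPS than in saline, 1 was lower and 4 passed in neither direction, where 31.4% of all probes were higher and 39.8% lower. At 24 h 10 were called (42.9% of all probes), with 10 higher, 0 lower and 5 neither, against 19.2% higher and 23.7% lower of all probes. All 3 LPS arrays lay above all 3 saline arrays at 11 member probes at 4 h (32.6% of all probes) and 10 at 24 h (25.3%), and below them at 1 at 4 h (42.0%) and 0 at 24 h (29.0%). The median log2 difference of the members was 0.31 at 4 h, against -0.09 over all probes, and 0.45 at 24 h, against -0.02. By the fitted value, 4 member probes at 4 h (8.76% of all probes) and 4 at 24 h (2.56%) were called with a difference of at least 2-fold upwards. At 4 h these include Mmp8 and Adamts9 A_51_P479390, both not well above background in saline, and for the Adamts9 probe the data give a bound of only 1.93-fold. At 24 h they include Mmp8, which none of the 6 arrays of 24 h had well above background. The higher calls at both times were of 8 probes (6.34% of all probes). The call is an adjusted p under 0.05 in limma's two-sided test, adjusted by Benjamini-Hochberg over all kept probes, and each adjusted p below comes from that fit. These counts depended on how background was handled. With normexp correction of the raw signals, which adds an offset of 50 to every spot, 5 members were called at 4 h and 5 at 24 h, all higher. Over all probes the calls then numbered 12074 at 4 h and 4438 at 24 h, against 19701 and 11873 with the processed signal. The scaling sets the zero of the small differences: at 4 h the median over all probes was -0.09 as reported, -0.25 with each array scaled by its median and 0.03 with the 75th percentile taken over probes above background on all arrays. With median scaling 6584 probes were higher and 13568 lower at 4 h, against 8681 and 11020 as reported, and 3873 higher and 8841 lower at 24 h, against 5304 and 6569. With the slide as a block 9 members were higher and 1 lower at 4 h, and 8 higher at 24 h. Over all 27682 probes 8637 were then higher and 11015 lower at 4 h, and 5239 higher and 6357 lower at 24 h. Within the slides every member called at a time had the same sign on all 3 slides of that time. The separation of the groups already fixed that outcome, so it adds no support.

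**Figure D1:**
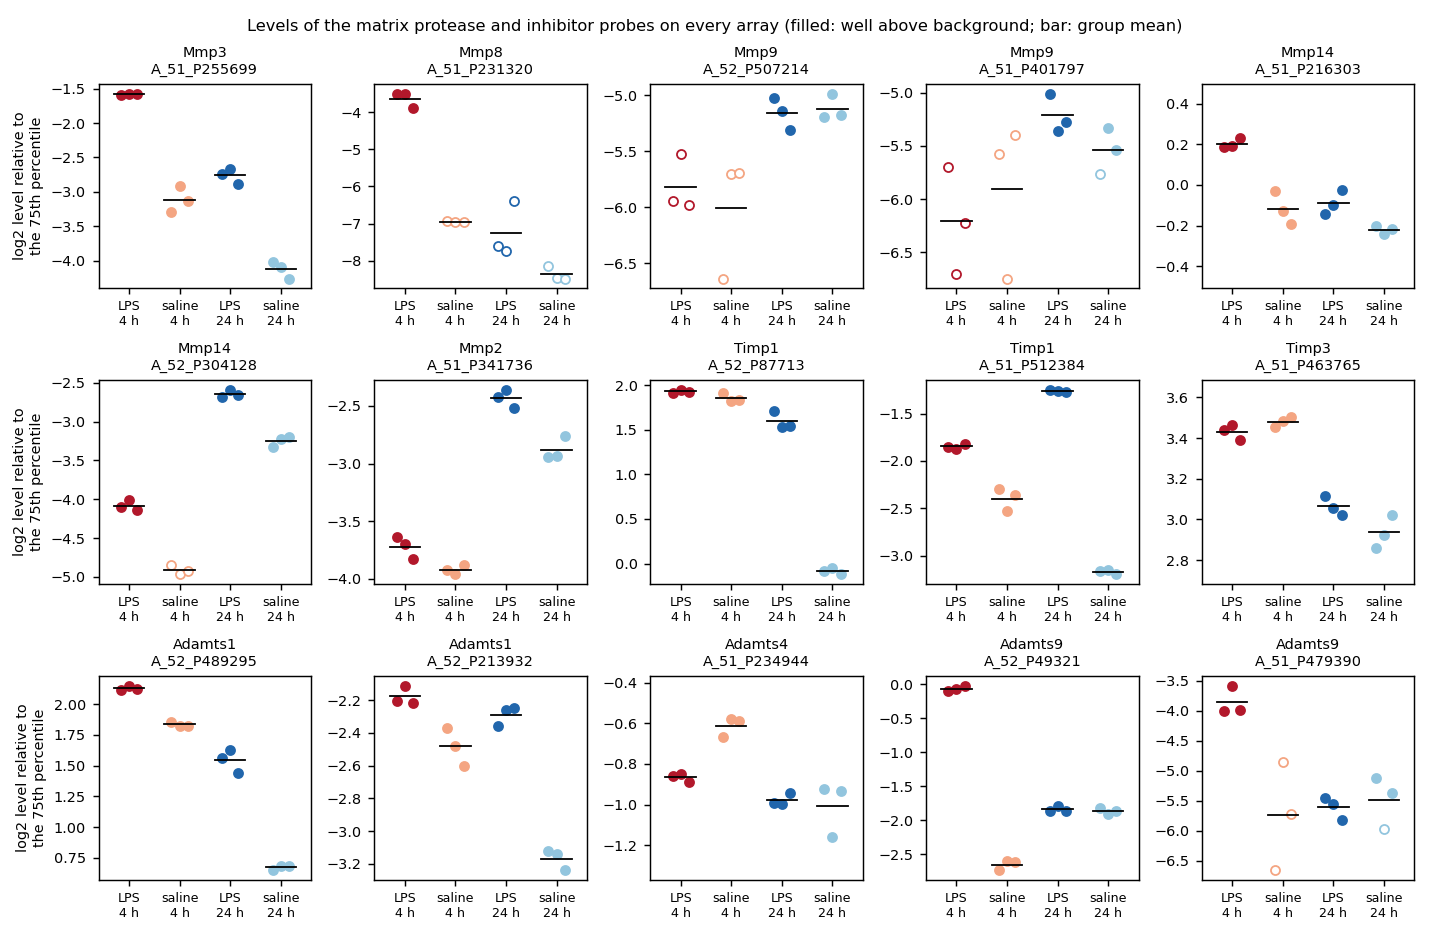
Levels of the 15 kept probes on each of the 12 arrays, in 1 panel per probe, as log2 of the intensity relative to the array's 75th percentile (vertical axes differ between panels and span at least 1 unit). Filled points were well above background, hollow points were not, and bars are group means (n = 3); the Mmp3 and Timp1 A_51_P512384 panels show LPS above saline at both times, while the Adamts9 A_52_P49321 panel shows the groups apart at 4 h and overlapping at 24 h.

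Mmp3 (stromelysin-1), which cuts laminin, fibronectin and proteoglycan and can activate other metalloproteinase precursors, was higher after LPS at both times. Its level (NM_010809, chr9:7455751-7455810, mm9, plus strand) was -1.59, -1.58 and -1.57 on the LPS 4 h arrays, against -3.29, -2.92 and -3.14 on the saline 4 h arrays. The difference was 1.53 ± 0.10 (SE), or 2.90-fold (adjusted p = 2.82e-07), and it lay between 1.33 and 1.72 on the 3 slides. At 24 h the level was -2.73, -2.67 and -2.88 after LPS and -4.02, -4.10 and -4.26 after saline. The groups did not overlap at either time, and the 24 h difference was 1.36 ± 0.10, or 2.57-fold (adjusted p = 3.76e-06). The higher call of Mmp3 stood at both times under each of 12 processing alternatives and with each of the 12 arrays left out, and it also stood when the saline arrays of the other time served as controls.

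Mmp8 (neutrophil collagenase), an enzyme stored in neutrophil granules, was measured only on the LPS 4 h arrays. There its level (NM_008611, chr9:7568238-7568297, plus strand) was -3.52, -3.51 and -3.90, with intensities of 44.7 to 64.6. On the saline 4 h arrays the probe was not well above background, with levels of -6.92, -6.95 and -6.96 and intensities of 3.1 to 3.2. LPS exceeded saline at 4 h at least 2.25-fold (group means -3.64 and -6.94), a bound taken from the lowest signal that was well above background on each saline array. The adjusted p of 4.52e-06 belongs to the fitted difference of 3.30, which uses the saline signals as read, and does not test this bound. The LPS 4 h signal was also the probe's condition of entry. With normexp correction the difference was 0.49 and no longer passed (adjusted p = 0.0806), while in the authors' deposited matrix it was 0.86 (adjusted p = 3.12e-08). At 24 h neither the LPS arrays (intensities 4.3 to 8.6) nor the saline arrays (2.1 to 3.1) had it well above background, and no fold is given. Of 7 kept neutrophil markers 5 were higher, 1 lower and 1 neither at 4 h, where 31.4% of all probes were higher and 39.8% lower. At 24 h, where Mmp8 gave no measured direction, 5 were higher, 0 lower and 2 neither, against 19.2% higher and 23.7% lower of all probes. The lower one at 4 h was Csf3r (-0.29 ± 0.06). Among the higher ones Ngp was not well above background in saline at either time, nor Ltf in saline 4 h. Ngp was thus kept only through LPS groups, and Cxcr2, higher at 24 h, only through the LPS 24 h arrays. A signal well above background in LPS groups was therefore a condition of entry for both. The summed linear level of the 9 neutrophil markers on the array, in units of the 75th percentile, was 6.38 to 6.62 in LPS 4 h, 1.25 to 1.34 in saline 4 h, 2.17 to 2.26 in LPS 24 h and 1.11 to 1.13 in saline 24 h. S100a9 alone made up 81.7 to 82.3% of that sum in LPS 4 h and 30.4 to 33.1% in saline 4 h. Elane was well above background on no array and Camp on none outside LPS 4 h. The part of these cells in the Mmp8 signal was not tested.

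Of the gelatinases, which cut denatured and basement membrane collagen, neither Mmp9 probe passed at either time, and Mmp2 was higher by small steps. Mmp9 was not well above background on any 4 h array at either probe. At 24 h the probe A_52_P507214 (NM_013599, chr2:164780620-164780679, plus strand; 10 spots per array) read -5.02, -5.14 and -5.31 after LPS and -5.19, -4.99 and -5.18 after saline, a difference of -0.04 ± 0.24 (adjusted p = 0.917). The other probe, A_51_P401797 (chr2:164780303-164780362), differed by 0.33 ± 0.35 at 24 h (adjusted p = 0.495) and was measured on 2 of the 3 saline arrays. At 4 h A_52_P507214 was called higher in the deposited matrix (0.20, adjusted p = 0.00888), and A_51_P401797 lower without saline 4 h replicate 2 (-0.72, adjusted p = 0.0344). The groups overlapped at both probes, and signals this near to background leave a change of the size of these standard errors undetectable. Mmp2 (NM_008610, chr8:95376840-95376899, plus strand) read -3.64, -3.70 and -3.83 in LPS 4 h and -3.93, -3.96 and -3.88 in saline 4 h. It read -2.42, -2.36 and -2.52 in LPS 24 h and -2.94, -2.93 and -2.76 in saline 24 h. Each LPS array thus lay above each saline array of its time, by 0.20 ± 0.07 at 4 h (adjusted p = 0.0203) and 0.45 ± 0.07 at 24 h (adjusted p = 0.000467). The 4 h call of Mmp2 rested on single arrays and settings: it was lost without LPS replicate 1 or 2 or without saline replicate 2 (0.16 to 0.25 over all leave-outs), with the slide as a block (adjusted p = 0.0643) and with quantile normalization (0.03), and with normexp the value was -0.09. The 24 h call of Mmp2 was lost with normexp (0.27, adjusted p = 0.419).

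Mmp14, a membrane-anchored metalloproteinase that activates the Mmp2 precursor, was higher at both of its probes and both times. The probe A_51_P216303 (NM_008608, chr14:55059969-55060028, plus strand) read 0.19, 0.19 and 0.23 in LPS 4 h, against -0.03, -0.13 and -0.19 in saline 4 h. At 24 h it read -0.14, -0.10 and -0.02 after LPS and -0.20, -0.24 and -0.22 after saline. The groups were separate at each time, with a difference of 0.32 ± 0.05 at 4 h (adjusted p = 0.000119) and 0.13 ± 0.05 at 24 h (adjusted p = 0.0423). The 24 h call of this probe stood in 3 of 12 leave-outs and was lost with the slide as a block (adjusted p = 0.0511). The probe A_52_P304128 (chr14:55058775-55058834) was not well above background in saline 4 h. LPS exceeded it there at least 1.66-fold (means -4.08 and -4.91). The adjusted p of 2.45e-07 belongs to the fitted difference of 0.83, not to this bound. At 24 h the difference was 0.61 ± 0.05, or 1.52-fold (adjusted p = 1.23e-05), with means of -2.64 ± 0.05 and -3.25 ± 0.07 (SD, n = 3 each). With normexp correction the second probe passed at neither time (0.04 at 4 h, 0.33 at 24 h).

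The Adamts proteases took 3 courses. Adamts9, which cleaves versican and aggrecan, was higher than saline of the same time at 4 h and not at 24 h. Its probe A_52_P49321 (NM_175314, chr6:92723051-92723110, mm9, minus strand) read -0.10, -0.08 and -0.02 on the LPS 4 h arrays, against -2.73, -2.60 and -2.61 on the saline 4 h arrays. That difference, 2.58 ± 0.05 or 5.98-fold (adjusted p = 1.61e-10), was the largest at 4 h among member probes measured in both groups, and it lay between 2.49 and 2.71 on the 3 slides. At 24 h LPS read -1.86, -1.78 and -1.86 and saline -1.82, -1.91 and -1.86, so the groups overlapped and the difference was 0.03 ± 0.05 (adjusted p = 0.651). A second probe nearer the start of the gene, A_51_P479390 (chr6:92876348-92876407, named in the files through an Ensembl transcript), went the same way. At 4 h LPS exceeded saline, where it was not well above background, at least 1.93-fold (means -3.86 and -5.74). The adjusted p of 0.00171 belongs to the fitted difference of 1.88, not to this bound. At 24 h the probe differed by -0.12 ± 0.40 (adjusted p = 0.836). With normexp the second probe did not pass at 4 h (0.18), while the first did (1.84).

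Adamts1, an inducible protease of aggrecan and versican, was modestly higher at 4 h and more so at 24 h, with the same size at both probes. The probe A_52_P489295 (NM_009621, chr16:85795044-85795103, minus strand) read 2.11, 2.15 and 2.12 in LPS 4 h and 1.86, 1.82 and 1.83 in saline 4 h. It read 1.56, 1.62 and 1.44 in LPS 24 h and 0.65, 0.68 and 0.68 in saline 24 h. LPS stood above saline on every slide, by 0.29 ± 0.04 at 4 h (adjusted p = 0.000142) and 0.87 ± 0.04, or 1.83-fold, at 24 h (adjusted p = 3.23e-07). The probe A_52_P213932 (chr16:85796191-85796250) differed by 0.31 ± 0.06 at 4 h (adjusted p = 0.00140) and 0.88 ± 0.06 at 24 h (adjusted p = 3.97e-06). The 24 h calls stood in all leave-outs and alternatives other than the control swap described below, whereas with each array scaled by its median neither probe passed at 4 h (0.13, adjusted p = 0.0540, and 0.14, adjusted p = 0.0907), and with normexp A_52_P213932 did not pass at 4 h (0.11, adjusted p = 0.402). Adamts4, the aggrecanase-1 known to cut the proteoglycans of perineuronal nets, was the member called lower. Its probe (NM_172845, A_51_P234944, chr1:173189671-173189730, plus strand) read -0.86, -0.85 and -0.89 in LPS 4 h against -0.67, -0.58 and -0.59 in saline 4 h, a separation of -0.26 ± 0.06 (adjusted p = 0.00327). At 24 h LPS read -0.994, -0.998 and -0.945 and saline -0.92, -1.16 and -0.93, which overlapped (0.03 ± 0.06, adjusted p = 0.756). The 4 h call was lost when the scaling percentile was taken over probes above background on all arrays (adjusted p = 0.0702) and with normexp (adjusted p = 0.0509).

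Timp1, a secreted inhibitor of most metalloproteinases that is strongly inducible in reactive glia, had the largest 24 h differences of all member probes, at both of its probes. A_52_P87713 (NM_001044384) read 1.71, 1.53 and 1.54 in LPS 24 h, against -0.08, -0.05 and -0.12 in saline 24 h. A_51_P512384 read -1.25, -1.26 and -1.27 in LPS 24 h, against -3.16, -3.15 and -3.20 in saline 24 h. The groups lay far apart, by 1.68 ± 0.05 or 3.20-fold at A_52_P87713 (adjusted p = 1.01e-08) and 1.91 ± 0.05 or 3.76-fold at A_51_P512384 (adjusted p = 5.78e-09), and both calls stood with every array left out and with normexp. At 4 h the probes differed. A_51_P512384 read -1.85, -1.88 and -1.82 after LPS and -2.30, -2.53 and -2.36 after saline, a difference of 0.55 ± 0.05 or 1.46-fold (adjusted p = 5.27e-06). A_52_P87713 read 1.92, 1.95 and 1.93 after LPS and 1.91, 1.82 and 1.83 after saline, and its difference of 0.08 ± 0.05 did not pass (adjusted p = 0.194). That value moved with the scaling: it was 0.17 with quantile normalization (adjusted p = 0.0125), 0.19 in the deposited matrix (adjusted p = 0.0115) and -0.09 with median scaling (adjusted p = 0.245).

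Timp3, the matrix-bound inhibitor that also blocks Adamts proteases and Adam17, differed little between LPS and saline. Its probe (NM_011595, A_51_P463765, chr10:85811696-85811755, plus strand) read 3.44, 3.46 and 3.39 in LPS 4 h and 3.45, 3.48 and 3.51 in saline 4 h, with overlap and a difference of -0.05 ± 0.04 (adjusted p = 0.358). At 24 h LPS read 3.11, 3.06 and 3.02 and saline 2.86, 2.92 and 3.02, a difference of 0.13 ± 0.04 (adjusted p = 0.0424). The 24 h call stood in 2 of 12 leave-outs and was lost with the slide as a block (adjusted p = 0.0995). At 4 h the direction of Timp3 depended on the scaling: it was called higher with quantile normalization (0.17, adjusted p = 0.00614) and in the deposited matrix (0.16, adjusted p = 0.0271), and lower with median scaling (-0.21, adjusted p = 0.00812).

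**Figure D2:**
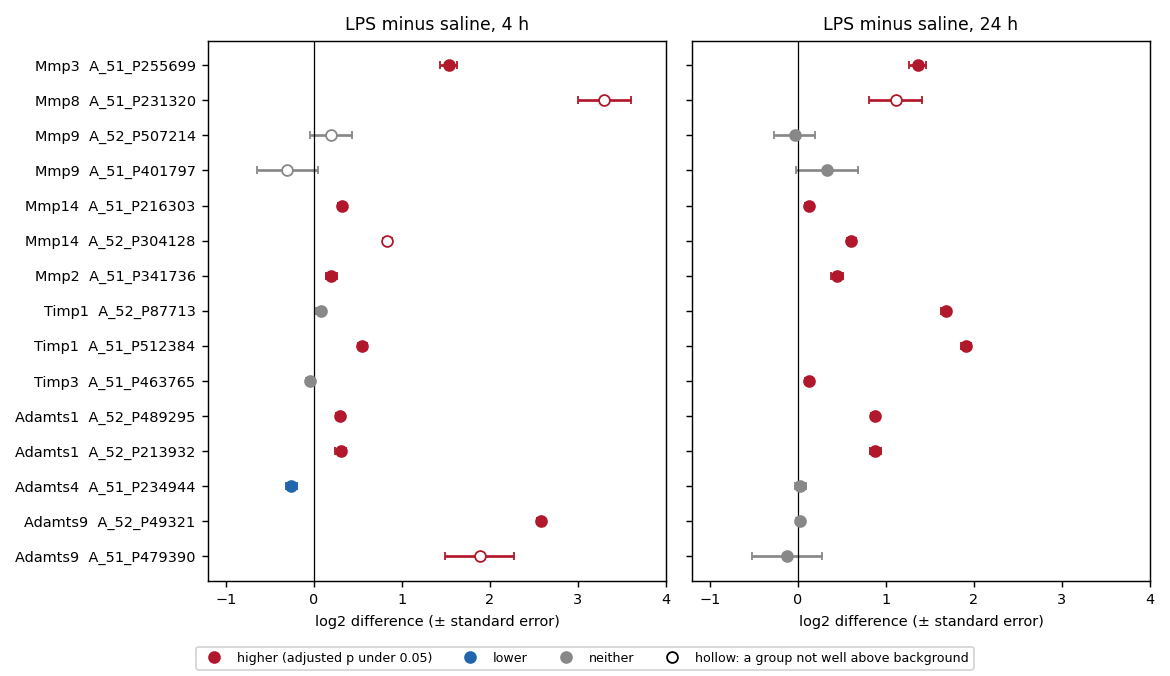
Log2 differences, LPS minus saline, of the 15 member probes at 4 h (left) and 24 h (right), with standard errors from the fit. Red points were called higher and the blue point (Adamts4, 4 h) lower at an adjusted p under 0.05, and hollow points had at least 1 group not well above background; Mmp3 sits right of 0 in both panels, Adamts9 A_52_P49321 lies at 2.58 in the left panel and at 0.03 in the right, and Timp1 lies farthest right among the filled points at 24 h.

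Whether the response differed between the times was tested as the 24 h response minus the 4 h response. Of the member probes 12 passed (65.8% of all probes), of which 7 had a higher and 5 a lower response at 24 h, against 36.9% higher and 29.0% lower of all probes. Timp1 had the largest gain, 1.60 ± 0.07 at A_52_P87713 (adjusted p = 4.77e-08) and 1.36 ± 0.07 at A_51_P512384 (adjusted p = 1.68e-07), followed by Adamts1 with 0.58 and 0.57. Among probes measured in all groups the largest loss was that of Adamts9 A_52_P49321, -2.55 ± 0.07 (adjusted p = 3.01e-09). Mmp8 and Adamts9 A_51_P479390 were also called lower, but with saline 4 h not well above background the sizes of their losses are not known. Mmp3 did not pass (-0.17 ± 0.14, adjusted p = 0.294), though it did in the deposited matrix (-0.35, adjusted p = 0.00430).

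These differences between times contain the saline groups, whose levels were far apart. In saline 24 h against saline 4 h, where 12 member probes passed, 4 were higher and 8 lower, where 38.8% of all probes were higher and 40.6% lower. Timp1 (-1.94 ± 0.05 at A_52_P87713, -0.77 ± 0.05 at A_51_P512384), Adamts1 (-1.16 ± 0.04 and -0.69 ± 0.06) and Mmp3 (-1.01 ± 0.10) were lower, while Mmp2 was higher by 1.04 ± 0.07 and Adamts9 (A_52_P49321) by 0.78 ± 0.05. Time and scan run cannot be told apart in these values. Set against saline 24 h instead of saline 4 h, LPS 4 h was higher at 10 and lower at 3 member probes (33.8% and 37.1% of all probes), and 8 probes were higher than both saline groups (10.7% of all probes). These 8 were Mmp3, Mmp8, Mmp14 A_51_P216303, Timp1 A_51_P512384, both Adamts1 and both Adamts9 probes. Mmp14 A_52_P304128 (-0.83) and Mmp2 (-0.84) were lower, and Timp1 A_52_P87713 (2.01) and Timp3 (0.50) higher, against saline 24 h.

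Set against saline 4 h, LPS 24 h was higher at 7 and lower at 4 member probes (39.9% and 40.0% of all probes). The 24 h increase of Timp1 A_51_P512384 (1.14 ± 0.05), Mmp3 (0.36 ± 0.10), Mmp2 (1.49 ± 0.07) and Adamts1 A_52_P213932 (0.19 ± 0.06) kept its direction. So did that of Mmp14 A_52_P304128 (at least 4.49-fold over saline 4 h, where it was not well above background). Adamts9 A_52_P49321, which did not differ from saline 24 h, was higher than saline 4 h (0.81 ± 0.05). Mmp9 A_52_P507214 was also called higher (0.85), with saline 4 h not well above background. Timp1 A_52_P87713 (-0.26 ± 0.05), Adamts1 A_52_P489295 (-0.29 ± 0.04) and Timp3 (-0.41 ± 0.04) were then lower, so their LPS 24 h means lay below saline 4 h and above saline 24 h. The saline level of Timp1 A_52_P87713 (-0.08 ± 0.04 in saline 24 h, against 1.85 ± 0.05 in saline 4 h; SD, n = 3 each) was high at 4 h, which accompanied the small 4 h difference of this probe, while its LPS levels were closer to each other, 1.59 ± 0.10 in LPS 24 h and 1.93 ± 0.02 in LPS 4 h.

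**Figure D3:**
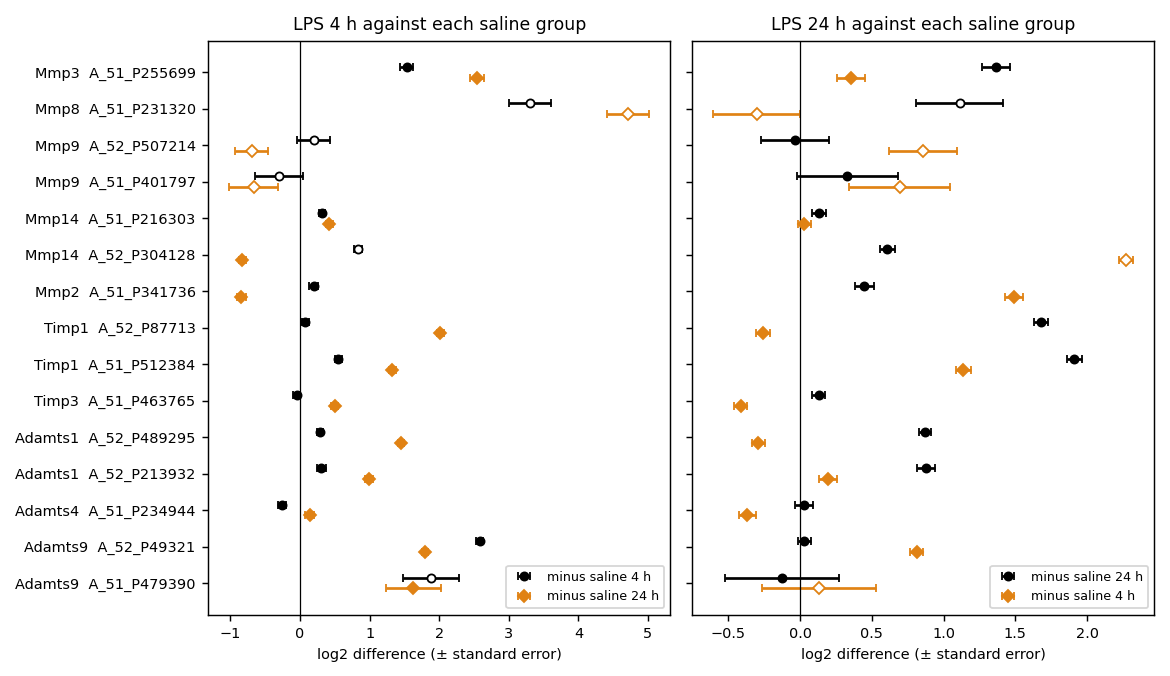
Log2 differences (± standard error) of LPS 4 h (left) and LPS 24 h (right) from each saline group: black circles use the saline arrays of the same time, orange diamonds those of the other time, and hollow symbols mark a group not well above background. Mmp3 lies right of 0 in all 4 comparisons, whereas Mmp2, Mmp14 A_52_P304128, Timp3 and Timp1 A_52_P87713 lie on different sides of 0 depending on the saline group.

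Cell type markers differed between the same groups. Of 9 endothelial markers 1 was higher and 8 lower at 4 h, and 8 were higher and 0 lower at 24 h, with a summed linear level of 21.4 to 21.8 in LPS 4 h, 51.9 to 52.6 in saline 4 h, 35.4 to 38.3 in LPS 24 h and 27.6 to 29.1 in saline 24 h. Of 7 microglial markers 1 was higher and 5 lower at 4 h and 6 higher and 1 lower at 24 h, with sums of 147 to 152, 195 to 209, 71.2 to 72.1 and 44.1 to 53.4 in the same order of groups. A single gene carried much of these sums: Trem2 made up 71.3 to 71.8% of the microglial sum in LPS 4 h, 67.4 to 69.2% in saline 4 h, 45.5 to 49.2% in LPS 24 h and 46.2 to 56.6% in saline 24 h, and at 4 h its 2 probes were called in opposite directions. Cldn5 made up 12.9 to 14.8% of the endothelial sum in LPS 4 h and 48.1 to 50.3% in saline 4 h. Astrocyte markers summed to 137 to 140, 201 to 209, 105 to 113 and 102 to 111. For pericytes and smooth muscle the sums were 22.1 to 22.5, 26.0 to 26.3, 18.0 to 18.4 and 15.2 to 16.5, and for meningeal fibroblasts 15.8 to 16.0, 14.3 to 14.7, 21.1 to 21.8 and 20.5 to 21.8. Of 8 choroid plexus markers 2 were higher and 5 lower at 4 h and 6 higher and 0 lower at 24 h, and they summed to 33.4 to 34.6, 40.6 to 42.6, 47.6 to 48.6 and 33.6 to 35.6. All markers of these lists were well above background in each group. Neuronal markers summed to 96.7 to 99.5, 73.2 to 74.9, 102.5 to 103.4 and 125 to 127, and markers of neighbouring tissue to 7.51 to 7.71, 12.8 to 13.5, 4.92 to 5.03 and 3.10 to 3.24, with Gh and Cga on no LPS 4 h array. Most endothelial, microglial and choroid plexus markers were thus higher at 24 h, as were all 10 member probes called there. At 4 h most of these markers were lower, as was Adamts4, while 10 member probes were called higher. Neuronal markers went the other way from those lists: 5 higher and 0 lower calls at 4 h (median 0.82), 0 and 4 at 24 h. Meningeal fibroblast calls were mostly higher at 4 h (4 against 2, median 0.63) and even at 24 h (2 each). Pericyte and smooth muscle calls were even at 4 h (3 each), and at 24 h all 7 were higher. Astrocyte calls were mixed at both times. Calls of neighbouring tissue leaned lower at 4 h (5 against 2) and higher at 24 h (4 against 2). Tcf7l2, counted lower at 4 h by 1 probe, had 2 other probes called higher, and it made up 54.1 to 57.7% of that list's sum in saline 4 h. Prox1, Gfap, Flt1 and Acta2 also had probes called in opposite directions at 4 h. The part of any list in the member values was not tested.

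Genes around the members were read from 7 lists of matrix genes, 1 probe per gene. The other metalloproteinases, 8 kept of 18 listed, gave 3 higher, 3 lower and 2 neither at 4 h, and 3, 2 and 3 at 24 h. Mmp11 (stromelysin-3) was lower (-1.04 ± 0.07) at 4 h, as was the membrane-type Mmp24 (-0.74 ± 0.06, at 1 of its 2 probes), while Mmp16 was higher by 0.47 ± 0.03 at 4 h and lower (-0.28 ± 0.03) at 24 h. Membrane-type Mmp17 was lower (-0.23 ± 0.03) at 24 h, at 1 of its 2 probes, and Mmp15 higher by 0.31 ± 0.06. Of the 3 other inhibitors, Timp2 (-0.29 ± 0.05) and the membrane-anchored Reck (-0.47 ± 0.06) were lower at 4 h. At 24 h Timp4 was higher by 0.85 ± 0.03 (adjusted p = 8.64e-08) and Timp2 by 0.14 ± 0.05, and Reck did not pass (0.14 ± 0.06).

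The other Adamts proteases, 14 kept of 16, gave 2 higher, 5 lower and 7 neither at 4 h and 4, 2 and 8 at 24 h. Adamts8 was higher by 1.05 ± 0.04 at 4 h and lower (-0.39 ± 0.04) at 24 h, Adamts20 and Adamts15 were lower at 4 h (-0.84 ± 0.06 and -0.65 ± 0.07), and at 24 h the procollagen protease Adamts3 was lower (-0.99 ± 0.05) and Adamts7 higher (1.20 ± 0.12). Of 8 kept Adam proteases 4 were higher, 2 lower and 2 neither at 4 h and 4, 1 and 3 at 24 h. Adam8, known from leukocytes and activated microglia, was higher by 1.44 ± 0.07 at 4 h and 0.42 ± 0.07 at 24 h, and Adam17, which releases tumour necrosis factor from the cell surface, by 0.89 ± 0.07 and 0.33 ± 0.07. Adam9 was higher by 0.47 ± 0.03 at 4 h, and Adam33 at 24 h at least 2.23-fold over saline, where it was not well above background, at 1 of its 3 probes.

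Plasmin, which can activate metalloproteinase precursors, is governed by a further group, of which 10 genes were kept: 3 higher, 4 lower and 3 neither at 4 h, and 6, 1 and 3 at 24 h. Plaur, the urokinase receptor, was higher by 1.64 ± 0.04 at 4 h (adjusted p = 1.23e-09). Neuroserpin (Serpini1), an inhibitor of tissue plasminogen activator, was higher by 0.87 ± 0.05 at 4 h. At 24 h Anxa2, a plasminogen-binding protein, was higher by 1.01 ± 0.04 and the plasmin inhibitor Serpinf2 by 0.43 ± 0.03.

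Among the substrates, 15 kept genes of proteoglycans and perineuronal nets gave 7 higher, 5 lower and 3 neither at 4 h and 5, 3 and 7 at 24 h. Acan, the aggrecan core protein, was lower (-1.14 ± 0.04) at 4 h and higher by 1.05 ± 0.04 at 24 h. Its mean level was 0.10 in LPS 4 h, 1.24 in saline 4 h, 0.94 in LPS 24 h and -0.10 in saline 24 h. Cd44, a hyaluronan receptor, was higher by 0.94 ± 0.04 and 0.69 ± 0.04, and the link proteins Hapln3 (-0.78 ± 0.05, 4 h) and Hapln1 (-0.79 ± 0.04, 24 h) were lower. Of 18 basement membrane and collagen genes 6 were higher, 7 lower and 5 neither at 4 h and 11, 1 and 6 at 24 h. Lamc1 (1.65 ± 0.05), Col1a1 (1.30 ± 0.04) and Col4a1 (1.29 ± 0.05) were higher at 4 h, and Col4a2 (0.78 ± 0.05), Col4a1 (0.77 ± 0.05) and fibronectin, Fn1 (0.80 ± 0.05, 2 of its 3 probes), at 24 h. The list medians at 4 h and 24 h were -0.32 and 0.06 for metalloproteinases, -0.29 and 0.14 for inhibitors, -0.23 and 0.17 for Adamts, 0.21 and 0.16 for Adam, -0.28 and 0.32 for plasminogen activation, 0.09 and 0.13 for proteoglycans and -0.07 and 0.44 for basement membrane. All probes had medians of -0.09 and -0.02.

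**Figure D4:**
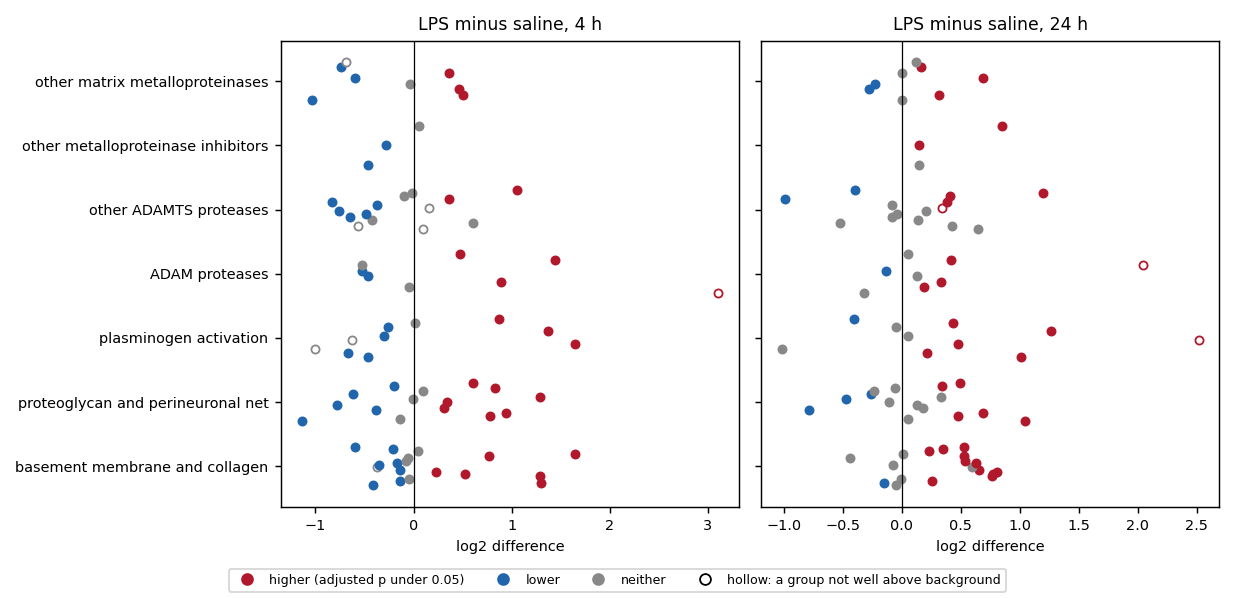
Log2 differences, LPS minus saline, of the kept genes of 7 matrix gene lists at 4 h (left) and 24 h (right), with 1 point per gene. Red points were called higher, blue lower and grey neither, and hollow points had a group not well above background; the basement membrane row holds 6 red and 7 blue points at 4 h and 11 red and 1 blue point at 24 h.

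The genes whose levels ran most like a member over the 12 arrays were found by Pearson correlation, given as a description because the arrays share groups, runs and scaling. For Timp1 (A_52_P87713) they were Rac2 (r = 0.993), Cxcl16 (0.990), Rasa4 (0.989) and Slc43a3 (0.989). For Timp3 they were Pim3, Sptlc2, Ptgs1 and Acer3 (all 0.989), and for Adamts4 they included P4ha1 (0.977), Ndufs3 (0.974) and Larp7 (0.971). Rac2, picked by its likeness to Timp1 A_52_P87713, differed little at 4 h (0.10) and was higher at 24 h (1.07), as that probe was. The other Timp1 probe, A_51_P512384, was higher at 4 h as well (0.55 ± 0.05). None are given for Mmp8, which was well above background only in LPS 4 h.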

How the data were processed

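Per the labels' protocols, Cy3-labelled RNA of 12 hippocampi was hybridised to one-colour Agilent arrays. The deposited files hold spot intensities, from which background was subtracted and trends removed by Feature Extraction 10.7.3.1, per the file headers (9.1 per the submitters' processing notes), with no scaling between arrays. Probe positions are on mm9. The deposited series matrix holds log2 values (column medians 6.98 to 6.99), which the authors' files leave undescribed; it was an alternative here.

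From the processed intensity of 43379 transcript spots, 926 outlier spots were left out, repeated spots were averaged (above background where a share of 0.5 of the spots was) and each array's 75th percentile was subtracted on the log2 scale. Means of the 4 groups were fitted over 12 arrays with limma 3.58.1 in R 4.3.3, called at a Benjamini-Hochberg adjusted p under 0.05. Every member is named, with the 3 smallest adjusted p per list and comparison and the 4 most alike genes of Timp1, Timp3, Mmp8 and Adamts4; 2 genes that this rule names, and those most like Mmp8, a probe mostly at background, are not reported here. Members and lists were chosen with earlier results of these data known. The procedure was run on simulated data with independent noise and no slide, run or brightness effect. That run therefore says nothing about such effects in these arrays. Alternatives covered background correction, scaling, filter, blocks, controls and leaving out each array. Probes were named by accession (27479), symbol (5478), synonym (679) or as in the files (7538). That the arrays are separate mice rests on the labels.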

Additional observations from a re-analysis of the deposited data

Results flagged for a closer look

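For 12 of the 15 member probes the response to LPS differed between the times by the test of the difference itself (limma, adjusted p under 0.05, against 65.8% of all probes in either direction), which is why they are listed here. Time and scan run cannot be told apart in these values. The 24 h response minus the 4 h response was 1.60 and 1.36 for Timp1 (A_52_P87713 and A_51_P512384), 0.58 and 0.57 for Adamts1 (A_52_P489295 and A_52_P213932), 0.28 for Adamts4, 0.25 for Mmp2 and 0.18 for Timp3. It was -2.55 and -2.01 for Adamts9 (A_52_P49321 and A_51_P479390), -2.19 for Mmp8, which was above background in LPS 4 h alone, and -0.23 and -0.19 for Mmp14 (A_52_P304128 and A_51_P216303). Mmp8, Adamts9 A_51_P479390 and Mmp14 A_52_P304128 were not well above background in saline 4 h, so the sizes of these differences are those of the fit. With normexp correction 5 of these calls were left, both Timp1 probes, both Adamts1 probes and Adamts9 A_52_P49321. The call of Timp3 stood in 3 of 11 processing alternatives and 4 of 12 leave-outs, and that of Mmp2 in 4 of 11 and 4 of 12. For Mmp14 it was 6 of 11 and 6 of 12 (A_51_P216303), and 4 of 9 and 12 of 12 (A_52_P304128). Adamts4 stood in 8 of 11 and 12 of 12. The median of this difference over all probes was 0.09, so part of the small values can lie in the scaling.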

How the results depend on the processing

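The LPS calls of Mmp3, and those of Timp1 and Adamts1 at 24 h and Adamts9 A_52_P49321 at 4 h, kept their direction and side of the threshold under every alternative run except other controls. With normexp background correction (offset 50), called member probes numbered 5 at 4 h, 5 at 24 h and 5 for the difference between times, against 11, 10 and 12, and all called probes 12074 and 4438, against 19701 and 11873. Testing 1 probe per gene name gave 7 of 10 members at 4 h, where fewer probes were tested, and 13455 of 18193 over all gene names. A threshold of 0.01 gave 7 for the difference between times. Signs turned with normexp for Mmp9 A_52_P507214 (-0.22 at 4 h, 0.16 between times), Mmp2 (-0.094, 4 h), Adamts9 A_52_P49321 (-0.0079, 24 h) and Mmp14 A_52_P304128 (0.29 between times); in the deposited matrix for Mmp9 A_51_P401797 (0.043, 4 h), Timp3 (0.16 at 4 h, -0.0063 between times), Adamts4 (-0.0021, 24 h) and Adamts9 A_52_P49321 (-0.023, 24 h). They turned with quantile normalization for Timp3 (0.17, 4 h) and Adamts9 A_52_P49321 (-0.021, 24 h), with the detected-probe 75th percentile for Timp3 (0.066, 4 h), and with median scaling for Timp1 A_52_P87713 (-0.086, 4 h), Adamts4 (-0.048, 24 h) and Adamts9 A_52_P49321 (-0.046, 24 h); the cause was not tested. With the saline arrays of the other time, 22119 probes differed at 24 h. The 4 h signs then turned for Mmp9 A_52_P507214 (-0.70), Mmp14 A_52_P304128 (-0.83), Mmp2 (-0.84), Timp3 (0.50) and Adamts4 (0.14), and the 24 h signs for Mmp8 (-0.30), Mmp9 A_52_P507214 (0.85), Timp1 A_52_P87713 (-0.26), Timp3 (-0.41), Adamts1 A_52_P489295 (-0.29), Adamts4 (-0.37) and Adamts9 A_51_P479390 (0.13).

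Leaving out each array gave 10 to 11 called members at 4 h, 8 to 9 at 24 h, 9 to 12 between times and 12 to 13 between saline groups. Over all 27682 probes it gave 18708 to 19874 at 4 h and 10400 to 12079 at 24 h. Over the leave-outs Mmp9 A_52_P507214 ran from -0.12 to 0.35 at 4 h, from -0.10 to 0.039 at 24 h and from -0.39 to 0.080 between times. At 24 h Adamts4 ran from -0.051 to 0.068 and Adamts9 A_51_P479390 from -0.37 to 0.057. With the replicate number as a block, 11 members were called at 4 h, 8 at 24 h and 10 between times. Over all probes 19424 were then called at 4 h and 11241 at 24 h. Members lost at 24 h were Mmp14 A_51_P216303 (adjusted p = 0.0749) and Timp3 (0.0769). Same-numbered LPS and saline arrays correlated at 0.08, 0.17 and -0.15 at 4 h and 0.03, 0.08 and 0.07 at 24 h. Differently numbered ones correlated at -0.30 to 0.25 at 4 h and at -0.06 to 0.007 at 24 h. At 24 h same-numbered arrays also shared a slide, so these values do not settle whether the numbers pair the samples. Signal over background limits Mmp8, Mmp9, Mmp14 A_52_P304128 and Adamts9 A_51_P479390.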
